A study of Mus musculus with 9 samples.

Results

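The genes described here are 28 mouse genes of cholesterol and fatty acid synthesis. They comprise 18 enzymes of the sterol pathway, 4 regulators and 6 genes of fatty acid synthesis. They were taken as a list of symbols and matched to 28 of the 47729 Ensembl identifiers measured. The rule of the list uses no measured value, but the list was drawn up with earlier results of these data known. The libraries held RNA bound to polyribosomes precipitated from dorsal striatum, and the mice were of the C57BL/6 strain and 28 days old (P28). RiboTag works as follows: Cre switches on a ribosomal protein that carries an HA (hemagglutinin) tag, and ribosomes of the Cre-expressing cells are collected with an antibody to it. All 3 groups carried D1-Cre, in which the D1 dopamine receptor gene directs Cre, and RiboTag, so the target cells were D1 medium spiny neurons, the output neurons of the direct pathway. The stereotypy group also carried floxed TrkB, the BDNF receptor gene that Cre deletes, and showed stereotypy, a repetitive behavior. The no stereotypy group had the same genotype, with floxed TrkB, and did not show it. The control group carried D1-Cre and RiboTag alone. Each group had 3 libraries, described as biological triplicates, and the labels give no batch, no sex and no account of whether animals were pooled. No RNA from before precipitation was analysed here, so enrichment for the target cells was not measured.

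Cholesterol is built from acetyl-CoA. The mevalonate steps make isoprenoid units, the squalene steps join them and close the ring to lanosterol, and a last series of enzymes turns lanosterol into cholesterol. The transcription factors SREBP-1 and SREBP-2, encoded by Srebf1 and Srebf2, switch these genes on when sterols are low: SCAP carries them from the endoplasmic reticulum to the Golgi for cleavage, and INSIG-1 holds SCAP back when sterols are plentiful. Fatty acids are made from the same acetyl-CoA. The brain makes its own cholesterol because the blood-brain barrier keeps lipoproteins out, and both neurons and glia hold these enzymes, with large amounts needed for myelin.

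Promoter letters were available for 23 of the 28 genes (RefSeq, GRCm38.p6), and Fdps, Fdft1, Sqle, Scd1 and Scd2 had no entry. In the 250 bases before 1 RefSeq start per gene, 4 motifs were searched on both strands, and none overlapped another in the windows printed here. These were a sterol regulatory element (TCACNCCAC), the NF-Y box (CCAAT), the GC box bound by Sp1 (GGGCGG) and the E-box (CACGTG). The NF-Y box was found in 18 of the 23 windows (78.3%), against 35.1% of all 20595 promoters of the same length. The GC box was in 17 of 23 (73.9%, against 39.4%), the E-box in 3 of 23 (13.0%, against 6.41%) and the sterol regulatory element in 1 of 23 (4.35%, against 1.06%). The windows below are those of the 3 genes whose level differed between groups, and of Hmgcs1, added after its letters were seen because it is the one member with a match to the sterol regulatory element. They run 5′ to 3′ along the gene's strand, and capitals mark every match to the 4 motifs on either strand.
Dhcr7 (chr7:143822917-143823166, plus strand): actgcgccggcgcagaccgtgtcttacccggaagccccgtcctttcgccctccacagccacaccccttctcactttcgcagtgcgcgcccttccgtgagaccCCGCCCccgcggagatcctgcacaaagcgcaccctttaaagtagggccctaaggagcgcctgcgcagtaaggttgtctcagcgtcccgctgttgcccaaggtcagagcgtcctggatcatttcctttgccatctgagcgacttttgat
Thrsp (chr7:97417551-97417800, minus strand): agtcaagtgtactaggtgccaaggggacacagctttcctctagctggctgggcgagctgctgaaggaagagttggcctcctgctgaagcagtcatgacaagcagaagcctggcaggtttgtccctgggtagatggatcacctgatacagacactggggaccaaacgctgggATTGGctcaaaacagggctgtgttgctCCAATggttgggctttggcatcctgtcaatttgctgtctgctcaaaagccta
Mvk (chr5:114444019-114444268, plus strand): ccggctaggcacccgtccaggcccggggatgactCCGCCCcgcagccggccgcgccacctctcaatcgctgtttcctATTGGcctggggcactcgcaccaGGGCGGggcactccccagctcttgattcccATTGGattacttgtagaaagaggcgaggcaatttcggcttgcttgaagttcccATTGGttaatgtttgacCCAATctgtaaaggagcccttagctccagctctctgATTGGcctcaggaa
Hmgcs1 (chr13:119690101-119690350, plus strand): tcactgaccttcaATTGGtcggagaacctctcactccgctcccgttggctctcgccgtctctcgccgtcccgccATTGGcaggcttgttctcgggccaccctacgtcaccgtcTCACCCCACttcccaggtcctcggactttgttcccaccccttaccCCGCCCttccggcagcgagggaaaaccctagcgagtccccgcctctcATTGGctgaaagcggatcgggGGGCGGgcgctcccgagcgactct
The Dhcr7 window held 1 GC box and no CCAAT. The Thrsp window held 2 NF-Y boxes and no GC box, and that of Mvk held 5 NF-Y boxes and 2 GC boxes. In the Hmgcs1 window there were 3 NF-Y boxes, 2 GC boxes and the sterol regulatory element. A match is a run of letters, and these data do not measure binding. Some RefSeq starts lie inside the gene as GENCODE places it, so those windows are partly or wholly within the gene. The Thrsp gene ends at 97417730 on the minus strand, so both NF-Y boxes of its window lie within it. The Acaca window (84195188 to 84195437) lies inside its gene (84129672 to 84401651).

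Library totals ranged from 27103152 to 40578512 reads, and with 3 reads as the limit for a count of 0, the highest level such a count could hide was 0.0739 to 0.111 CPM (CPM being reads of a gene scaled by the library's total), for counting error only. Ntrk2, which encodes TrkB, was at 34.3, 43.9 and 40.7 CPM in stereotypy libraries and 23.4, 14.1 and 19.2 CPM in no stereotypy libraries, against 319, 385 and 487 CPM in controls. It was low in all 6 libraries with floxed TrkB and the groups did not overlap. D1 neuron markers were present throughout, and 7 of them summed to 2186 to 2246 CPM in stereotypy, 1481 to 1836 CPM in no stereotypy and 1763 to 2381 CPM in control libraries, with 1 of 7 higher in stereotypy than in no stereotypy. RNA of other cells was present too. The summed level of 12 astrocyte markers was 695 to 720 CPM in stereotypy libraries, 505 to 627 CPM in no stereotypy libraries and 513 to 618 CPM in controls, and 6 of the 12 were higher in stereotypy than in control libraries (limma, adjusted p of at most 0.05). For 12 oligodendrocyte markers the sums were 1203 to 2146, 768 to 1749 and 586 to 1217 CPM in the same order, with 1 of 12 higher in stereotypy than in control. The 5 measured markers of D2 medium spiny neurons, the indirect-pathway cells that should lack the tag, summed to 259 to 424 CPM in stereotypy libraries, 597 to 1050 CPM in no stereotypy libraries and 443 to 1433 CPM in controls, and none of the 5 passed the test in any comparison. Between stereotypy and no stereotypy, however, their median log2(CPM + 1) difference was -1.23 (-1.35 to -0.75). There 5 of 5 had an unadjusted p of at most 0.05 (limma, 29.9% of all genes). The libraries did not overlap, stereotypy being lower, for 4 of 5 (17.5% of all genes). No measured marker of these lists was at 0 in any library. Sums were lower for 6 markers of oligodendrocyte precursors (21.7 to 30.6 CPM in stereotypy, 16.0 to 28.2 CPM in no stereotypy and 10.7 to 20.6 CPM in control libraries), 8 of microglia (17.3 to 21.5, 8.15 to 11.0 and 9.14 to 20.7 CPM) and 8 of vessels (30.1 to 77.4, 13.4 to 24.7 and 17.9 to 41.3 CPM). Between stereotypy and no stereotypy libraries, where Thrsp and Mvk were called, 3 of 12 astrocyte, 2 of 8 microglial, 1 of 7 tested vascular and 3 of 5 general medium spiny neuron markers were higher in stereotypy, and none of these was lower. The part of these cells in the results was not tested. Fits with marker covariates are given below but cannot decide it for the stereotypy group. Its astrocyte sums lay above all other libraries and its D2 sums below them, so marker level and group go together. The glial and vascular covariate took the calls over all genes from 699 to 40 for stereotypy against control. For stereotypy against no stereotypy the D2 covariate took them from 1398 to 0. A call lost in these fits therefore says nothing of that gene alone. In such bulk samples, fewer cells of a type and less RNA per cell cannot be told apart.

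Dhcr7 was the one gene of the 28 that was higher in both TrkB-deleted groups than in controls. Thrsp was higher in no stereotypy than in control libraries, and Thrsp and Mvk were lower in stereotypy than in no stereotypy libraries. The other 24 genes tested passed no test in the fit to all 9 libraries, and Fdps was too low to test. Differences were tested with limma on log2(CPM + 1) over the 13695 genes that reached 1 CPM in 3 or more libraries, and an adjusted p of at most 0.05 (Benjamini-Hochberg over all genes tested) counts as passing. All log2 differences below are on that scale, which understates those of low genes. With 3 libraries a group, each limma p-value sets a group difference against the spread within groups, pooled over all 9 libraries. A library outside the groups compared can therefore change a call.

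For stereotypy against control, 1 of 27 tested members passed and it was higher, against 5.10% of all genes tested (3.58% higher and 1.53% lower). The members' median log2 difference was -0.01, against 0.05 over all genes. The libraries of these groups did not overlap for 5 members that were higher and 2 that were lower, against 18.0% and 9.72% of all genes, and 5 members had an unadjusted p of at most 0.05 (24.0% of all genes). These shares are close to those of all genes.

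For no stereotypy against control, 2 of 27 passed and both were higher, against 6.77% of all genes (3.76% higher and 3.01% lower). Here 24 of 27 members lay above 0 (54.7% of all genes did), with a median of 0.21 against 0.03. The libraries did not overlap for 7 members that were higher and for none that were lower (14.9% and 10.6% of all genes), and 6 had an unadjusted p of at most 0.05 (22.5%).

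For stereotypy against no stereotypy, 2 of 27 passed and both were lower, against 10.2% of all genes (6.61% higher and 3.60% lower). In that comparison 7 of 27 members lay above 0 (52.3% of all genes) and the median was -0.21 against 0.02. The libraries did not overlap for 9 members that were lower and for none that were higher (17.5% and 20.8% of all genes), and 7 had an unadjusted p of at most 0.05 (29.9%). The number of all genes that limma called there was 1398, and it was lower when single libraries of these groups were left out. Without stereotypy replicate 3 it was 0 (2873 at an unadjusted p of at most 0.05), and without the first or the second no stereotypy replicate it was 0 as well (2926 and 3088 unadjusted). Without stereotypy replicate 2 it was 1, and without stereotypy replicate 1 it was 806. For these 9 libraries edgeR called 1335 genes and DESeq2 2343.

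For both TrkB-deleted groups against control, 1 of 27 passed and it was higher, against 5.72% of all genes (3.67% higher and 2.05% lower), and the median was 0.07 against 0.04. All 6 deleted libraries lay above the controls for 3 members, Dhcr7, Srebf1 and Scd2, and below them for none (6.05% and 3.25% of all genes), and 4 had an unadjusted p of at most 0.05 (20.4%). The comparisons share control or deleted libraries, so these medians are not independent of each other.

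**Figure D1:**
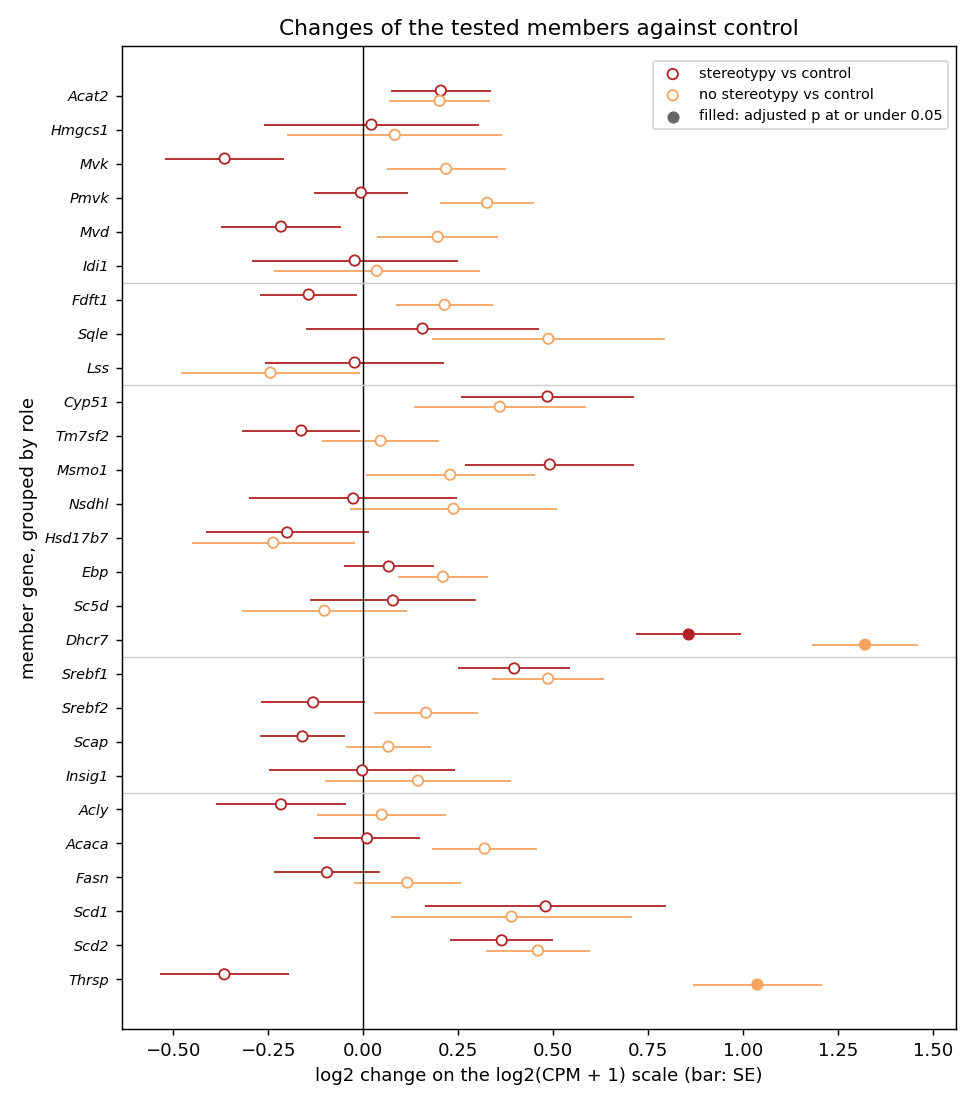
Log2 differences on the log2(CPM + 1) scale, with standard errors, for the 27 tested members in stereotypy against control and no stereotypy against control; filled points passed the test. Dhcr7 stands to the right in both comparisons (0.86 and 1.32), and Thrsp lies on opposite sides of 0 (-0.37 and 1.04).

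Dhcr7 (ENSMUSG00000058454, chromosome 7, 143823145 to 143848410, plus strand, GRCm38) encodes 7-dehydrocholesterol reductase, which makes cholesterol in the last step of the pathway through that sterol. Its level was 42.4, 53.6 and 35.8 CPM in stereotypy libraries and 56.2, 61.8 and 62.7 CPM in no stereotypy libraries, against 23.3, 21.6 and 25.7 CPM in controls. Every TrkB-deleted library lay above every control, and the stereotypy libraries all lay below those without stereotypy. The means were 43.9 ± 8.99, 60.3 ± 3.50 and 23.6 ± 2.05 CPM in that order (SD, n = 3 each), or 1.87 and 2.56 times the control mean in the stereotypy and no stereotypy groups. The log2 difference from control was 0.86 (SE 0.14, adjusted p = 0.00928) in stereotypy and 1.32 (SE 0.14, adjusted p = 0.000644) in no stereotypy, and 1.09 (SE 0.12, adjusted p = 0.000722) for both groups together. Between stereotypy and no stereotypy it was -0.46 (adjusted p = 0.0571), which missed the threshold. It passed without control replicate 2 (adjusted p = 0.0466), under median-of-ratios scaling (0.0441) and with DESeq2 (0.0143). The longest protein-coding transcript of Dhcr7 shares no run of 50 bases with another gene, and no other gene's exons overlap those of Dhcr7.

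Astrocyte markers were higher in stereotypy than in control libraries, as given above, and they were not alone. Precursor markers had a median of 0.73 there (1 of 6 passed, higher). Vascular markers had a median of 1.14, with 6 of 7 above 0 (58.3% of all genes) and 1 past the threshold, lower. With a covariate for glial and vascular markers the stereotypy difference of Dhcr7 was 0.63 (adjusted p = 0.225), past the threshold no longer. The same covariate cut the calls over all genes from 699 to 40 in that comparison. In the no stereotypy libraries the summed astrocyte markers overlapped the control range. Of the 12, 1 was higher than in control and 9 lay above 0, as did 54.7% of all genes. All 12 oligodendrocyte and all 6 precursor markers lay above 0 (median 0.53 and 0.46), with none past the threshold. Of microglial markers 0 of 8 lay above 0, and of vascular ones 3 of 7, with 1 higher and 1 lower. The 7 D1 markers had a median of -0.42, with none past the threshold. Of them 5 had an unadjusted p of at most 0.05 (limma, 22.5% of all genes). The libraries did not overlap for 3 that were lower and 1 that was higher (10.6% and 14.9% of all genes). Of 5 general medium spiny neuron markers 0 lay above 0, and 1 passed, being lower. Of 5 D2 markers 4 lay above 0 (median 0.49), with none past the threshold. With the glial and vascular covariate the difference of Dhcr7 from control in no stereotypy was 1.24 (adjusted p = 0.00194). Leaving out any 1 library left Dhcr7 past the threshold against control in both groups.

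**Figure D2:**
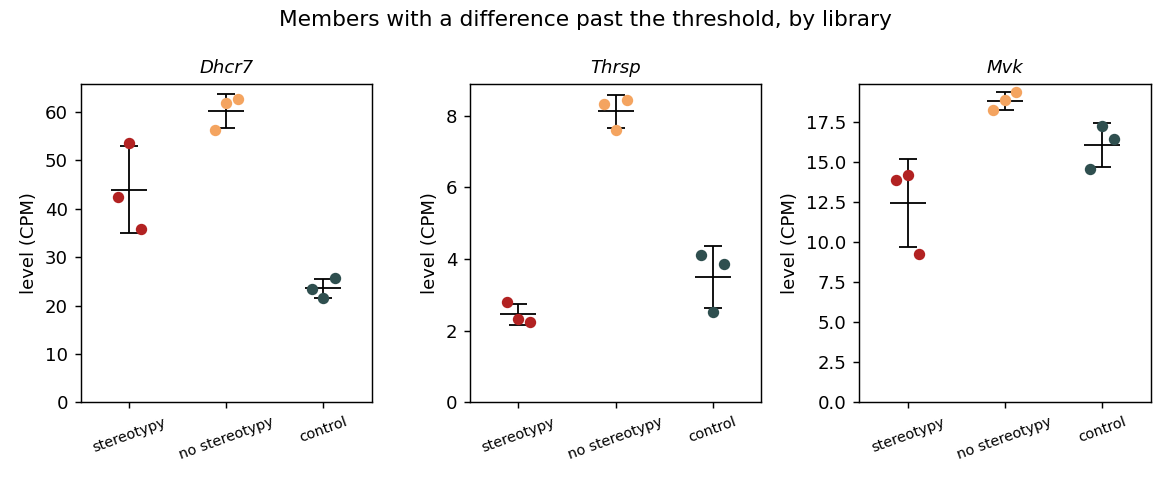
Level in CPM of Dhcr7, Thrsp and Mvk in each library, with group means and SD bars (n = 3 each), the groups from left to right being stereotypy, no stereotypy and control. Dhcr7 is lowest in the 3 controls (21.6 to 25.7 CPM), while Thrsp is highest in the 3 no stereotypy libraries (7.59 to 8.43 CPM) and Mvk is lowest in stereotypy replicate 3 (9.26 CPM).

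The other enzymes after lanosterol passed no test. Cyp51, the lanosterol demethylase, Tm7sf2, a sterol reductase, Msmo1, Nsdhl and Hsd17b7, which together remove methyl groups, Ebp, an isomerase, and Sc5d, the desaturase that makes the substrate of Dhcr7, had log2 differences from control between -0.20 and 0.49 in stereotypy and between -0.24 and 0.36 in no stereotypy. Sc5d, the step just before Dhcr7, differed by 0.08 in stereotypy and by -0.10 in no stereotypy (adjusted p = 0.858 and 0.826). Msmo1 in stereotypy libraries had the smallest unadjusted p of these 7 enzymes, and its difference was 0.49 (adjusted p = 0.208), or 0.08 (adjusted p = 0.960) with the glial and vascular covariate. Cyp51 passed for both groups against control without control replicate 3.

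Of the mevalonate steps, Mvk (mevalonate kinase, ENSMUSG00000041939, chromosome 5, 114444269 to 114460591, plus strand) was the one that passed a test. It was at 13.9, 14.2 and 9.26 CPM in stereotypy libraries and 18.3, 18.9 and 19.4 CPM in no stereotypy libraries, against 14.6, 17.3 and 16.5 CPM in controls. The 3 no stereotypy libraries lay above all others and stereotypy replicate 3 lay far below its group. Against no stereotypy the log2 difference in stereotypy was -0.58 (SE 0.16, adjusted p = 0.0420), and against control it was -0.36 (adjusted p = 0.185). The call did not hold with any one library of those 2 groups left out. Its adjusted p was 0.0526, 0.0736 and 0.125 without stereotypy replicates 1, 2 and 3, and 0.108, 0.112 and 0.0755 without no stereotypy replicates 1, 2 and 3. The D2 marker sums of these groups did not overlap either, and with those markers as a covariate, an alternative chosen after seeing the data, the difference was -0.38 (adjusted p = 0.365). With the glial and vascular covariate it was -0.70 (adjusted p = 0.0693).

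The next steps of the route gave smaller differences of the same sign. Pmvk, phosphomevalonate kinase, was at 28.3, 25.8 and 20.8 CPM in stereotypy libraries and 32.1, 29.6 and 32.8 CPM in no stereotypy libraries, against 23.6, 24.6 and 26.6 CPM in controls. Mvd, the decarboxylase that ends the mevalonate route, was at 16.8, 17.8 and 14.4 CPM in stereotypy, 21.0, 22.0 and 23.0 CPM in no stereotypy and 20.1, 14.7 and 23.4 CPM in control libraries. For both genes every stereotypy library lay below every no stereotypy library, while the range of the Mvd controls overlapped that of each group. Stereotypy against no stereotypy gave -0.33 for Pmvk (adjusted p = 0.103) and -0.41 for Mvd (adjusted p = 0.114), neither past the threshold, which Mvd passed without control replicate 2 (adjusted p = 0.0428).

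Hmgcs1, the cytosolic HMG-CoA synthase, was at 213, 291 and 217 CPM in stereotypy libraries and 201, 213 and 359 CPM in no stereotypy libraries, against 243, 153 and 345 CPM in controls. A single library was high in each group, control replicate 2 was the lowest of all 9, and the groups overlapped fully. Its log2 difference from control was 0.02 in stereotypy and 0.08 in no stereotypy (adjusted p = 0.971 and 0.900). Acat2, the thiolase that condenses acetyl-CoA, ranged from 27.4 to 42.3 CPM over the 9 libraries, and Idi1, the isopentenyl diphosphate isomerase, from 1.75 to 4.98 CPM, and neither passed a test. Fdps, the farnesyl diphosphate synthase, was at 0.859, 0.514 and 0.701 CPM in stereotypy, 0.414, 0.504 and 0.542 CPM in no stereotypy and 0.712, 0.368 and 0.368 CPM in control libraries, all under 1 CPM. Of the 50-base runs in its longest protein-coding transcript, 86.4% also occur in 8 other genes, so reads may be split or dropped and its level is uncertain. Shared runs, counted in that 1 transcript per gene, also reach 52.6% for Acaca, 45.9% for Acat2, 30.7% for Fdft1 and 30.5% for Idi1. They were absent for 14 of the 28 members.

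Of the squalene steps, none passed a test. Fdft1, squalene synthase, was at 80.7, 78.1 and 59.8 CPM in stereotypy libraries and 88.1, 99.0 and 91.8 CPM in no stereotypy libraries, against 78.1, 90.8 and 72.0 CPM in controls. The stereotypy libraries lay below those without stereotypy (-0.36, adjusted p = 0.0923), and the range of the controls overlapped that of each. Its exons overlap those of Ctsb on the opposite strand over 18.3% of their bases, and the use of strand in counting is unknown here. Sqle, squalene epoxidase, was at 34.4, 56.6 and 36.1 CPM in stereotypy libraries and 43.1, 45.9 and 71.9 CPM in no stereotypy libraries, against 35.4, 23.9 and 59.4 CPM in controls. The highest library of each group was well above its group mates and the groups overlapped, with a difference from control of 0.16 in stereotypy and 0.49 in no stereotypy (adjusted p = 0.793 and 0.389). Lss, which closes the ring to lanosterol, ranged from 16.4 to 34.5 CPM, its highest value being in control replicate 2.

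The regulators passed no test in all 9 libraries. Srebf1, which encodes SREBP-1, was at 11.7, 11.2 and 10.5 CPM in stereotypy libraries and 12.9, 11.4 and 11.5 CPM in no stereotypy libraries, against 8.70, 9.68 and 6.59 CPM in controls. All 6 TrkB-deleted libraries lay above the 3 controls, but the difference was 0.40 in stereotypy (adjusted p = 0.133), 0.49 in no stereotypy (adjusted p = 0.0755) and 0.44 for both (adjusted p = 0.0702). Without control replicate 2 it passed in no stereotypy (0.59, adjusted p = 0.0436) and for both (0.55, adjusted p = 0.0498). Srebf2, which encodes SREBP-2, was at 234, 280 and 266 CPM in stereotypy libraries and 317, 323 and 316 CPM in no stereotypy libraries, against 263, 240 and 362 CPM in controls. The no stereotypy libraries lay above those with stereotypy, inside the span of the controls, with a difference of -0.30 between the deleted groups (adjusted p = 0.171).

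Scap, the SREBP escort, was at 102, 101 and 98.0 CPM in stereotypy libraries and 131, 125 and 98.9 CPM in no stereotypy libraries, against 104, 123 and 111 CPM in controls. The stereotypy libraries lay below all controls and overlapped 1 no stereotypy library, and the difference from control was -0.16 (adjusted p = 0.411). Between the deleted groups it was -0.23 (adjusted p = 0.201), and Scap passed there without no stereotypy replicate 3. Insig1, which retains SCAP and is itself an SREBP target, was at 24.8, 35.0 and 21.2 CPM in stereotypy libraries and 23.9, 27.4 and 38.5 CPM in no stereotypy libraries, against 25.9, 19.6 and 36.3 CPM in controls. The 3 groups overlapped fully and its differences from control were -0.00 and 0.14 in stereotypy and no stereotypy (adjusted p = 0.996 and 0.773).

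Among the fatty acid genes, Thrsp had the largest difference. It encodes the thyroid hormone responsive protein Spot14, a nuclear factor linked to lipogenesis in liver and fat, and lies on chromosome 7 (ENSMUSG00000035686, 97412938 to 97417730, minus strand). The 9 values were 2.79, 2.31 and 2.25 CPM in stereotypy libraries and 8.32, 7.59 and 8.43 CPM in no stereotypy libraries, against 4.11, 2.52 and 3.86 CPM in controls. The no stereotypy libraries lay above all others and the stereotypy libraries overlapped the lowest control. The means were 2.45 ± 0.30, 8.11 ± 0.46 and 3.50 ± 0.86 CPM (SD, n = 3 each), and the log2 difference from control was -0.37 (adjusted p = 0.217) in stereotypy and 1.04 (SE 0.17, adjusted p = 0.00648) in no stereotypy. Between stereotypy and no stereotypy it was -1.40 (SE 0.17, adjusted p = 0.0154), a call that did not hold when stereotypy replicate 2 (adjusted p = 0.0585) or 3 (0.0738) or no stereotypy replicate 1 (0.0611) or 2 (0.0564) was left out, nor with the D2 markers as a covariate (-1.36, adjusted p = 0.208). The call against control held in all 19 alternatives that tested Thrsp, among them each library left out.

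Scd2, the stearoyl-CoA desaturase common in brain, had the highest level per exon length (given below) and was at 565, 653 and 592 CPM in stereotypy libraries and 591, 562 and 800 CPM in no stereotypy libraries, against 498, 411 and 498 CPM in controls. All TrkB-deleted libraries lay above the controls, but the difference was 0.36 in stereotypy (adjusted p = 0.136), 0.46 in no stereotypy (adjusted p = 0.0708) and 0.41 for both (adjusted p = 0.0694). With the glial and vascular covariate these were 0.05, 0.35 and 0.20 (adjusted p = 0.959, 0.172 and 0.646), and with DESeq2 Scd2 passed in no stereotypy (adjusted p = 0.0294) and for both groups (0.0367). Its paralog Scd1 was at 13.4, 15.7 and 10.6 CPM in stereotypy, 10.4, 7.93 and 21.7 CPM in no stereotypy and 9.36, 6.48 and 12.3 CPM in control libraries. The Scd1 groups overlapped and 1 no stereotypy library was far above the rest. Scd1 and Scd2 share 4.66% and 4.01% of the 50-base runs in their longest protein-coding transcripts with other genes, each other among them.

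Fasn, fatty acid synthase, was at 184, 246 and 213 CPM in stereotypy libraries and 265, 256 and 220 CPM in no stereotypy libraries, against 187, 244 and 257 CPM in controls. Acaca, acetyl-CoA carboxylase, was at 21.2, 19.1 and 19.1 CPM in stereotypy, 24.3, 21.5 and 29.0 CPM in no stereotypy and 22.7, 17.1 and 19.5 CPM in control libraries. Their ranges overlapped controls and neither passed a test, with differences from control of -0.10 and 0.12 for Fasn and 0.01 and 0.32 for Acaca in stereotypy and no stereotypy. Acly, which makes cytosolic acetyl-CoA, ranged from 150 to 265 CPM, with its highest value in control replicate 3, and its log2 difference from control was -0.22 in stereotypy and 0.05 in no stereotypy (adjusted p = 0.468 and 0.904).

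The sterol enzymes were high or low together from library to library within a group. Of the 17 tested, 12 had their highest value of the group in stereotypy replicate 2 (31.4% of all genes did), 15 in no stereotypy replicate 3 (44.0%) and 12 in control replicate 3 (33.4%), and 12 had their lowest in control replicate 2 (39.3%). The median deviation of the 17 enzymes from their own mean over all libraries was -0.05, 0.17 and -0.14 in the stereotypy libraries, -0.04, 0.02 and 0.32 in the no stereotypy libraries and -0.06, -0.26 and 0.08 in the controls, on the log2(CPM + 1) scale. The 3 libraries in which most enzymes were high were also those with the highest D2 marker sum of their group. That sum was 424 CPM in stereotypy replicate 2, 1050 CPM in no stereotypy replicate 3 and 1433 CPM in control replicate 3. The astrocyte marker sum was highest in the same 3 libraries, at 720, 627 and 618 CPM. Stereotypy replicate 3 was close, at 718 CPM. The other marker sums did not peak in all 3 of these libraries. Those of oligodendrocytes and their precursors peaked in stereotypy replicate 1 (2146 and 30.6 CPM), and otherwise in the same libraries. The microglial sum peaked in no stereotypy replicate 1 and control replicate 1, and the vascular sum in no stereotypy replicate 1. The D1 sum peaked in none of the 3. The part of any of these cell types in the result was not tested. The spread within groups (SD of log2 values) was above the median of all genes for 19 of 27 members, and was widest for Scd1 (0.49, at the 96.1 percentile), Sqle (0.49, 96.1), Hmgcs1 (0.45, 94.9) and Nsdhl (0.41, 93.3). The spread of Dhcr7 was 0.19, at the 54.5 percentile.

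**Figure D3:**
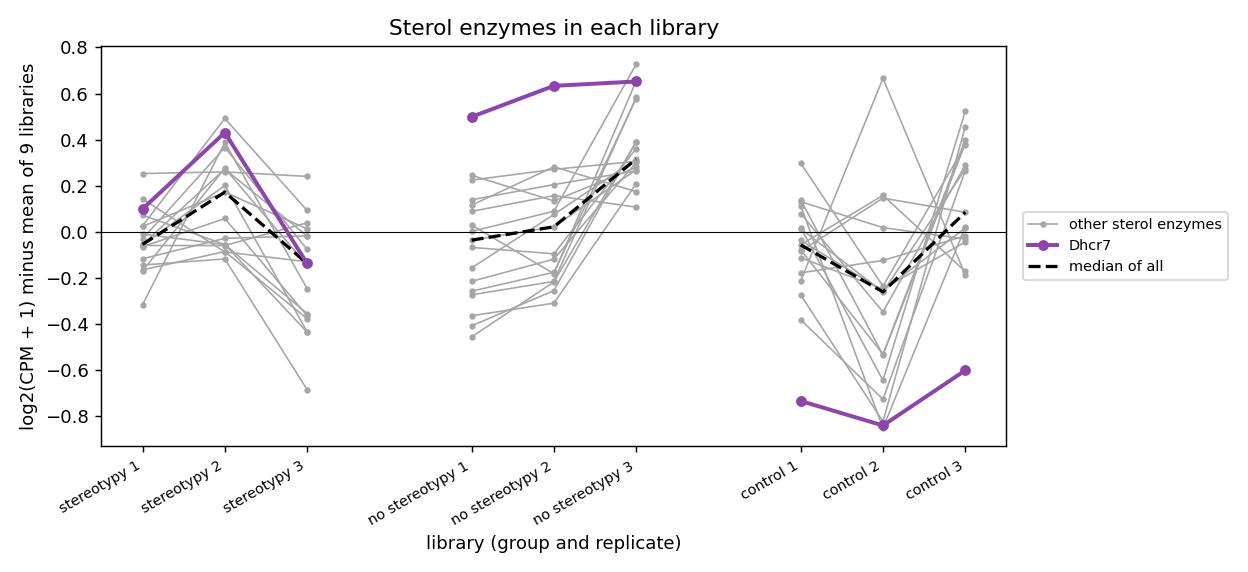
Deviation of each of the 17 tested sterol enzymes from its mean over the 9 libraries, on the log2(CPM + 1) scale, one line per enzyme within a group, with Dhcr7 in purple and the median dashed. No stereotypy replicate 3 has the highest median (0.32) and control replicate 2 the lowest (-0.26), and Dhcr7 (purple) sits at or next to the bottom in the 3 controls.

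Levels per kilobase of exon placed Scd2 first in all 3 groups, at 110 ± 8.27, 119 ± 23.7 and 85.9 ± 9.20 CPM per kb (stereotypy, no stereotypy, control, SD, n = 3 each). Hmgcs1 was second at 52.4 ± 9.54, 56.1 ± 19.2 and 53.8 ± 20.9 CPM per kb, and Srebf2, Acly, Fasn and Fdft1 followed, in that order by group mean in all 3 groups. Hmgcs1 and Srebf2 overlapped in the controls and in the no stereotypy libraries, so their order there is within the spread. Dhcr7 held rank 16 in stereotypy and 12 in no stereotypy, against 18 in control, and Thrsp held rank 26 in stereotypy, 19 in no stereotypy and 23 in control. Fasn and Fdft1 overlapped in every group and Srebf2 and Acly did so in the controls. Idi1 and Fdps were the lowest in each group. The length used is that of all annotated exons of a gene merged. It can far exceed the longest protein-coding transcript, as for Msmo1 (6144 against 2044 bases) and Lss (10787 against 4667 bases). The order between genes depends on that choice of length.

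**Figure D4:**
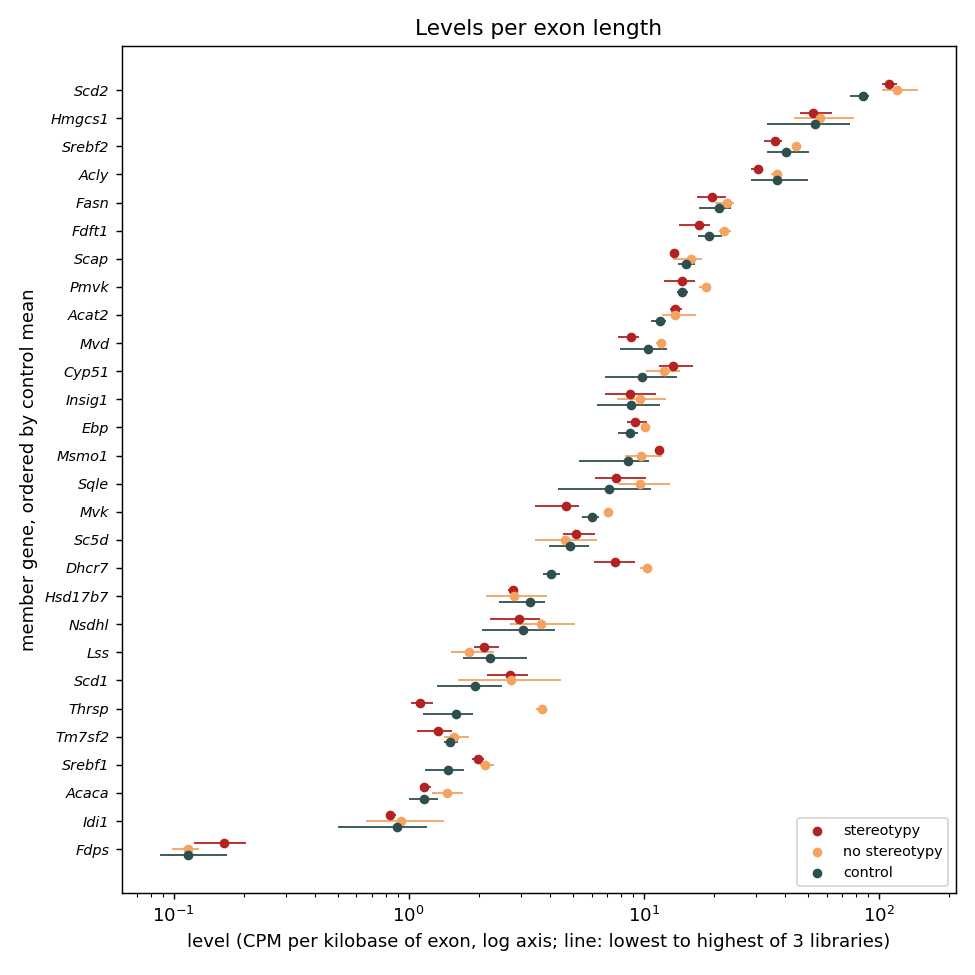
Mean level of the 28 members per kilobase of exon on a log axis (CPM per kb, bars are the lowest to highest of 3 libraries), by group. Scd2 and Hmgcs1 lead in every group and Fdps is at the foot, and Dhcr7 changes its place between groups (rank 16, 12 and 18).

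The 3 further lists of the same pathways held 48 genes, of which 46 were tested. Of all genes, 5.10% passed for stereotypy against control and 6.77% for no stereotypy against control. For stereotypy against no stereotypy 10.2% passed, and for both groups against control 5.72%. No list had more than 1 call in a comparison, too few to tell from these shares. Of 13 further sterol and isoprenoid genes, 1 passed, lower in stereotypy than in control and than in no stereotypy. That was Aacs, acetoacetyl-CoA synthetase, which feeds ketone bodies into lipid synthesis, at 33.1, 36.0 and 34.0 CPM in stereotypy libraries and 45.3, 46.4 and 50.3 CPM in no stereotypy libraries, against 45.7, 44.4 and 57.9 CPM in controls. Its 3 stereotypy libraries lay below all 6 others, with differences of -0.50 from control (adjusted p = 0.0338) and -0.45 from no stereotypy (adjusted p = 0.0350). The call against no stereotypy was lost with any one library of the 2 groups left out (adjusted p 0.0699 to 0.116), and that against control without any stereotypy library (0.0883 to 0.0989), without control replicate 3 (0.0748) or without no stereotypy replicate 1 or 2 (0.0538 and 0.0562). The covariates ended it too, at 0.132 for glial and vascular and 0.140 for D2 markers, and the D2 markers took the difference from no stereotypy to -0.21 (adjusted p = 0.415).

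Of 15 genes of sterol uptake, efflux and turnover, 1 was higher in no stereotypy than in control and none passed in the other comparisons. This was Abcg4, a sterol exporter of neurons and astrocytes, at 29.9, 31.1 and 30.1 CPM in stereotypy libraries and 42.2, 35.0 and 36.4 CPM in no stereotypy libraries, against 22.4, 28.9 and 29.1 CPM in controls. The no stereotypy libraries were the 3 highest (0.49, adjusted p = 0.0384), a call lost without control replicate 1 (0.113) and without any TrkB-deleted library (0.0567 to 0.167), and under 14 of 20 alternatives in all. Of 18 tested genes of fatty acid supply, elongation and desaturation, 1 was higher in stereotypy than in control, 1 was higher in no stereotypy than in control and 1 was lower in stereotypy than in no stereotypy. Elovl5, an elongase of polyunsaturated fatty acids, was at 34.4, 40.0 and 29.7 CPM in stereotypy libraries and 30.1, 27.3 and 29.2 CPM in no stereotypy libraries, against 20.8, 18.1 and 23.2 CPM in controls. All TrkB-deleted libraries lay above the controls, with a difference of 0.72 in stereotypy (adjusted p = 0.0155), lost without stereotypy replicate 1 (0.0501) or 2 (0.0802) and with the glial covariate (0.40, adjusted p = 0.393), and 0.59 for both groups (adjusted p = 0.0137), lost with the same covariate (0.38, adjusted p = 0.289).

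Tecr, which reduces the last double bond in each round of fatty acid elongation, was at 272, 243 and 238 CPM in stereotypy libraries and 331, 325 and 308 CPM in no stereotypy libraries, against 264, 241 and 243 CPM in controls. Its no stereotypy libraries lay above all 6 others, with a difference of 0.37 from control (adjusted p = 0.0261), and the stereotypy libraries differed from them by -0.36 (adjusted p = 0.0294). The call against control was lost without control replicate 2 (0.0530) or 3 (0.0585), or without no stereotypy replicate 1 (0.116) or 2 (0.0933). The call between the deleted groups was lost without stereotypy replicate 2 (0.0959) or 3 (0.115), or without no stereotypy replicate 1 (0.103) or 2 (0.0930). With the glial and vascular covariate neither call held (0.0710 and 0.0930), nor the second with D2 markers (0.208).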

How the data were processed

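RNA from polyribosome precipitates was sequenced in 9 libraries (3 groups of 3). The authors deposited 1 table of CPM per library, the reads of a gene scaled by the library's total. TopHat and the build GRCm38 are named, per the submitters' processing notes. The read counter, annotation and strand setting were not given in the sources used here. All values (100%) were whole multiples of 1 read within 0.1 reads, so whole reads were recovered for the count tests.

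Symbols and positions came from GENCODE M21 (47224 of 47729 identifiers; the other 505 held at most 0.0761% of a library's reads). Genes that reached 1 CPM in 3 or more libraries were tested on log2(CPM + 1) with limma 3.58.1 (R 4.3.3), with a variance trend, a mean per group and 6 residual degrees of freedom, and Benjamini-Hochberg adjustment at 0.05. Values in every library are given for members that passed in any comparison, the regulators, Hmgcs1, Sqle, Fasn, Scd1, Scd2 and the 4 further members with the smallest p; of the other lists, genes that passed, at most 4 a list, are named. Alternatives were pseudocounts of 0.25 and 4, other filters, median-of-ratios scaling, a replicate block, covariates of marker genes, single libraries left out, fits to the groups compared, edgeR 4.0.16 (quasi-likelihood) and DESeq2 1.42.0. The limma test of stereotypy against control was also run on simulated reads, with no outcome given here. Each gene was drawn on its own, without shifts shared by genes of a library, so no support is drawn from it. The members, lists and markers were chosen with earlier results of these data known.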

Additional observations from a re-analysis of the deposited data

Results flagged for a closer look

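Of the 4 genes whose level differed between the TrkB-deleted groups by the limma test, which makes their difference from control differ as well, Thrsp had a log2 difference of -1.40 for stereotypy against no stereotypy (adjusted p = 0.0154). For Mvk it was -0.58 (adjusted p = 0.0420), for Aacs -0.45 (adjusted p = 0.0350) and for Tecr -0.36 (adjusted p = 0.0294). In each of the 4 genes every stereotypy library was below every no stereotypy library, as for 17.5% of all genes tested. The 4 were picked by that same comparison, so this adds no support. Each of the 4 calls was lost without certain single libraries of these groups, as given above.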

How the results depend on the processing

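Single differences were followed through the alternatives where the gene passed, or, for a member, had an unadjusted p of at most 0.05. None of these reversed direction. The signs of the other members' differences were not followed. The number of members past the threshold for stereotypy against control was 1 in all libraries, 0 with a covariate for glial and vascular markers and 2 with D2 markers as a covariate, which was chosen after seeing the data (Cyp51 was added). For no stereotypy against control it was 2, and 1 with a mean of at least 5 CPM, which leaves out Thrsp, 3 with DESeq2 (Scd2 was added) and 2 to 3 with single libraries left out (Srebf1 was added without control replicate 2). For stereotypy against no stereotypy it was 2, then 1 with no filter, 1 with a mean of at least 5 CPM, 1 with the glial covariate, 0 with the D2 covariate, 3 with median-of-ratios scaling (Dhcr7 was added), 4 with only the 6 libraries compared (Mvd, Mvk, Srebf2 and Thrsp), 5 with DESeq2 (Dhcr7, Fdft1, Mvk, Pmvk and Thrsp) and 0 to 4 with single libraries left out. With the D2 covariate, limma called 0 of all 13695 genes in that comparison (2362 at an unadjusted p of at most 0.05). For both groups against control it was 1, then 3 with the D2 covariate (Cyp51, Dhcr7 and Scd2), 2 with DESeq2 (Dhcr7 and Scd2) and 1 to 2 with single libraries left out. The causes were not tested.

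Without a filter the calls of Mvk (adjusted p = 0.0802), Abcg4 (0.0733), Aacs (0.0618 and 0.0600) and Tecr (0.0534 and 0.0523) were lost, and with only the 6 libraries compared those of Aacs (0.0682), Abcg4 (0.0964) and Tecr (0.0558) against control. Abcg4 was also lost with median-of-ratios scaling (0.0531), edgeR (0.0566) and either covariate (0.107 for glial and vascular, 0.0735 for D2).

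With the replicate block the counts of members stayed at 1, 2, 2 and 1 in the same order, while those of all genes were 917, 1099, 1788 and 880, against 699, 927, 1398 and 784 without it. Of the genes named, the block ended the call of Abcg4 (adjusted p = 0.0512) and no other. Same-numbered libraries of different groups had deviations correlated at -0.0798 to 0.406, not every pair over 0.1, so they were not treated as pairs. A library matched its own number best in 12 of 18 comparisons, a hint from the data and not from the design. Median-of-ratios scaling left 379 of 717 calls higher for stereotypy against control (490 of 699 in CPM) and 391 of 752 for both groups (503 of 784). Without a filter, 330, 484, 572 and 392 genes were called in the 4 comparisons. With the glial covariate they were 40, 528, 755 and 96, and with DESeq2 1522, 1509, 2343 and 1326. The 3 libraries a group limit these tests, and a call that depends on 1 library is marked beside its gene.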
